A study of Saccharomyces cerevisiae with 24 samples.

Results

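The regulators of meiotic entry described here are 7 genes of budding yeast, chosen by systematic name: the activators IME1 (YJR094C), IME2 (YJL106W), RIM11 (YMR139W), RIM15 (YFL033C) and RIM4 (YHL024W), the repressor RME1 (YGR044C), and UME6 (YDR207C), which acts in both directions. All 7 are among the 6157 features of the table, and all 7 passed the filter on low counts. Polyadenylated RNA was sequenced from diploid cultures in sporulation medium, described as arrested in early meiosis, to which 50 µM copper sulfate was added 3 h after transfer. The 8 groups have 3 libraries each. In 6 of them the PHO92 locus was replaced by a hygromycin marker, and a transgene at TRP1 supplied HA-PHO92 from the CUP1 promoter, which copper induces. The transgene encoded 1 of 4 substitutions (L35A, L38P, I39A, W177A), a deletion of residues 35 to 42 (Δ35–42), or the wild-type protein (CUP1-PHO92). The other two groups were the PHO92 deletion without a transgene (pho92Δ) and the strain with native PHO92 (WT). Every strain, WT included, was MATa/alpha with ho::LYS2 and carried trp1::hisG, his3::hisG and leu2::hisG, besides ura3 and lys2. The copper was added to all 8 groups, and the time from copper to collection is not given in the sources used here. Nothing states that replicates came from separate cultures, so p-values measure the spread between these libraries, which may be technical.

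Starving MATa/alpha diploids enter meiosis when the transcription factor Ime1 accumulates. Rme1, a zinc-finger protein, represses IME1 from far upstream of the gene and is itself turned down in MATa/alpha cells. Ume6 binds the URS1 element of early meiotic genes and represses them with Sin3 and Rpd3. The kinases Rim11 and Rim15 promote the joining of Ime1 to Ume6, which then activates early genes, among them IME2. Ime2 is a kinase that promotes premeiotic replication and the later expression of NDT80, and Rim4 is an RNA-binding protein needed for early meiosis that also delays translation of some mid-meiotic messages. Pho92 has a YTH domain with which it reads N6-methyladenosine (m6A), a mark that Ime4 with Mum2 and Slz1 writes on messenger RNA. In earlier work on yeast, m6A has been reported on the messages of IME1, IME2 and RME1.

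The sequences through which 2 of these regulators act are shown because the genes downstream of them are compared later. They are from the RefSeq assembly R64 of the S288C reference strain, read 5′ to 3′ along the strand of the gene, and positions in bases are counted back from the start codon. The build behind the count table is not given in the sources used here, and nothing was measured at these sites. The Rme1 element was searched as ACCTCAA on both strands over 2500 bases upstream. IME1 (minus strand of chromosome X) holds it in 2 places, and capitals mark the match:
IME1, 2038 to 2032 bases upstream, chrX:607673-607699: tgtcaaaagaACCTCAAgaagtccact
IME1, 1957 to 1951 bases upstream, chrX:607592-607618: taactgctgtACCTCAAaagcataaaa
Of all 5997 protein-coding genes with a full window, 26.9% hold the 7 letters at least once and 4.25% at least 2 times. Of the 7 members 4 hold them, RIM15 also in 2 places and RIM4 and RME1 in 1 each.

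The core of URS1 was searched as GGCGGC on both strands (GCCGCC on the other) over 600 bases upstream. HOP1 holds another match, 529 to 524 bases upstream, which is not printed. Capitals mark the core in the following members and in SPO13 and HOP1, early genes given for comparison:
IME2, 550 to 545 bases upstream, plus strand, chrX:220830-220855: tttatgttacGGCGGCtatttgagtt
IME2, 455 to 450 bases upstream, plus strand, chrX:220925-220950: gcgagacttcGGCGGCaaaaagccac
RIM4, 341 to 336 bases upstream, plus strand, chrVIII:56298-56323: cgtttgattaGCCGCCcataacgggt
RIM4, 282 to 277 bases upstream, plus strand, chrVIII:56357-56382: ttaacgtttcGGCGGCtgtgatcaag
UME6, 436 to 431 bases upstream, minus strand, chrIV:867943-867968: tcccagaatgGGCGGCacgttcttat
UME6, 142 to 137 bases upstream, minus strand, chrIV:867649-867674: ggcggaaactGCCGCCgtcaaaaaga
RME1, 418 to 413 bases upstream, minus strand, chrVII:584295-584320: acgtaaaatgGCCGCCggagtgagat
SPO13, 95 to 90 bases upstream, plus strand, chrVIII:131942-131967: ttgagaaataGCCGCCgacaaaaagg
HOP1, 171 to 166 bases upstream, plus strand, chrIX:226421-226446: ttttaacctgGGCGGCtaaattgtac
The core stands upstream of 4 of the 7 members, of 14 of the 20 early meiotic genes listed for this work, and of 2 of the 17 middle meiotic genes. Over all 6005 protein-coding genes the share is 11.4%. A match of these letters is a description of the reference sequence and not a measured binding site.

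Library totals ran from 16108079 to 36733806 counts, and a floor of 3 counts equalled 0.0828 to 0.179 CPM (counts scaled to the size of the library), far under the lowest value of any member. PHO92 itself had means of 9159 to 12686 CPM in the 6 CUP1 groups, 0.279 CPM in pho92Δ (1, 14 and 1 counts) and 858.65 CPM in WT. The targeted gene thus followed the labels of deletion, native gene and CUP1 transgene. These totals cannot show which allele each of the 6 CUP1 groups carried. Header lines of the table place replicate 1 of W177A and replicate 2 of L38P in batch B and the other 22 libraries in batch A. They also give W177A the strain number of CUP1-PHO92, and the genotype label of I39A reads L39A. Replicate 2 of WT stood apart in its middle meiotic genes: the 17 listed summed to 17654 CPM, against 3810 and 4832 CPM in replicates 1 and 3 of WT. In every group but L38P, replicate 2 had the highest of these sums, with 14362 CPM in L35A. Of 16 haploid markers, the lowest, MFA2, MF(ALPHA)2 and MFA1, had medians of 0.117, 0.159 and 0.253 CPM, and the highest, STE3, GPA1 and SST2, had medians of 35.3, 33.2 and 32.7 CPM. The 16 together summed to between 205 and 347 CPM in every library.

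Per kilobase of coding length, which allows genes to be set side by side, IME1 averaged 3381 CPM per kb over the 24 libraries, RIM4 3104 and IME2 2075. These 3 stood above at least 99.4% of the features tested. RIM11 had 222 CPM per kb, UME6 102, RIM15 42.4 and RME1 19.0, the last above 11.1% of features. Messages of IME1, RIM4 and IME2 were thus among the most abundant in these cells and that of RME1 was among the scarce ones.

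**Figure D1:**
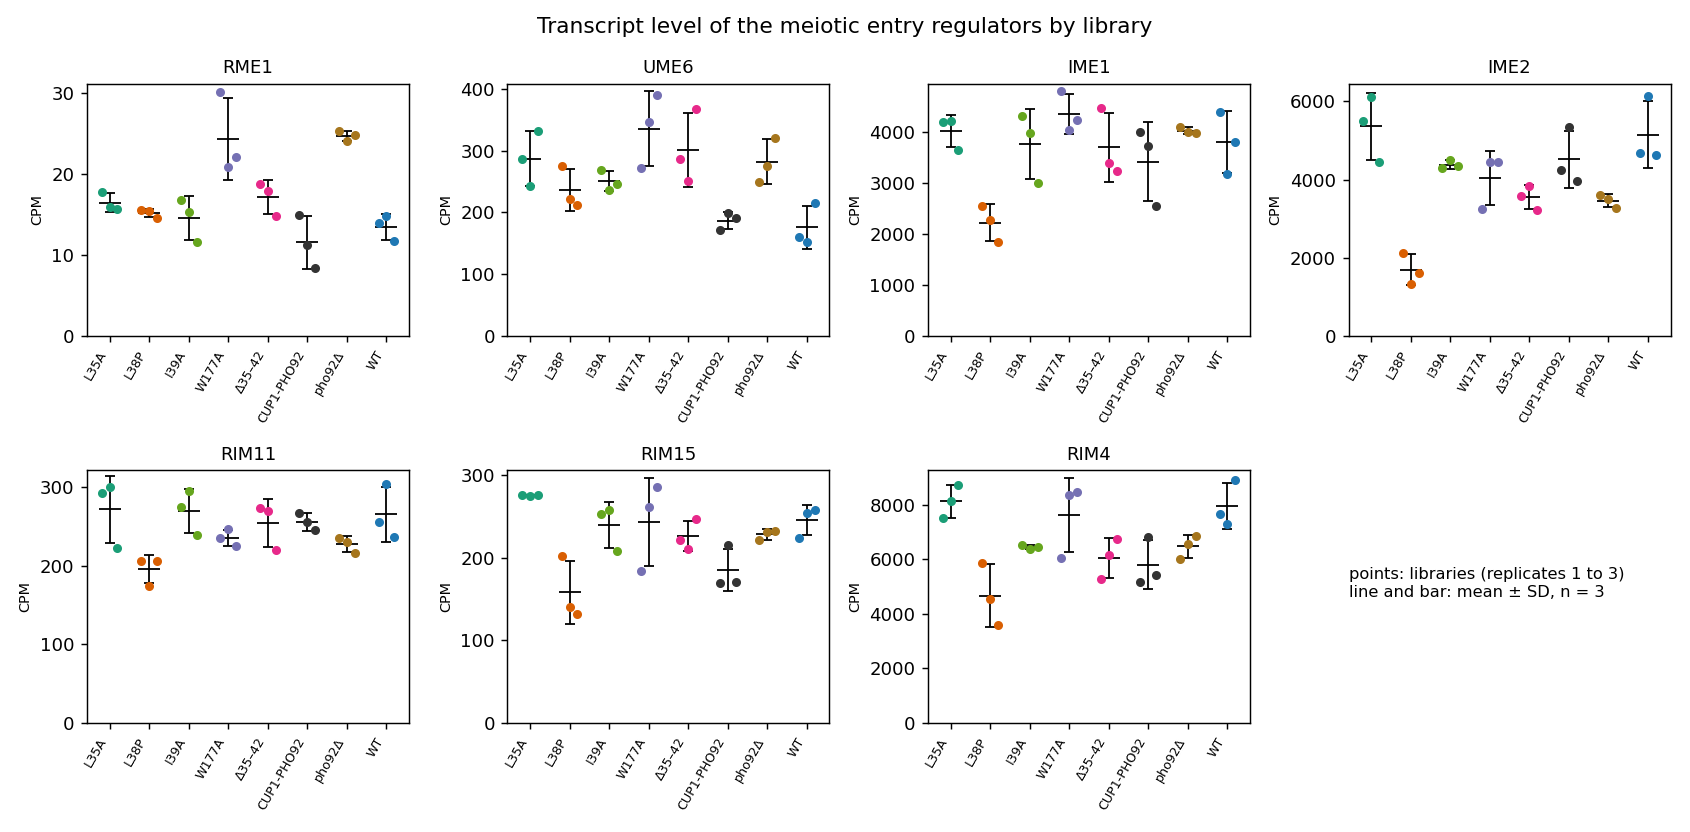
Level of each regulator in CPM (y axis, from 0) in the 24 libraries, by strain group; points are libraries and lines with bars are the mean ± SD (n = 3). RME1 is highest in pho92Δ and W177A, between 20.8 and 30.1 CPM, and IME2 is lowest in L38P, between 1341 and 2134 CPM.

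RME1 was higher where Pho92 was missing or carried W177A, the substitution in the YTH domain. In replicates 1, 2 and 3 it had 30.1, 20.8 and 22.1 CPM in W177A, against 15.0, 11.3 and 8.45 CPM in CUP1-PHO92. It had 25.3, 24.1 and 24.9 CPM in pho92Δ, against 13.9, 14.8 and 11.8 CPM in WT. Every W177A and pho92Δ library lay above every library of the other 6 groups. The difference between W177A and CUP1-PHO92 was 2.11-fold (log2 1.08, SE 0.181, adjusted p 0.000259, edgeR), and that between pho92Δ and WT was 1.84-fold (log2 0.88, SE 0.180, adjusted p 0.00385). CUP1-PHO92 had 0.467 times the level of pho92Δ (log2 -1.10, adjusted p 0.00015), and it did not pass the threshold against WT (log2 -0.22, 95% interval -0.60 to 0.16). Comparisons with the same group share its 3 libraries and are not independent of each other. In bulk RNA, fewer cells with a message and less of it per cell cannot be told apart, here and in all results that follow.

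The mutants of the segment at residues 35 to 42 had mean RME1 levels between these groups. The libraries held 18.8, 17.9 and 14.8 CPM in Δ35–42, 17.8, 15.9 and 15.7 CPM in L35A, 15.5, 15.4 and 14.6 CPM in L38P and 16.8, 15.3 and 11.6 CPM in I39A. Against CUP1-PHO92, RME1 rose in Δ35–42 (log2 0.57, SE 0.181, adjusted p 0.0306) and in L35A (log2 0.51, SE 0.182, adjusted p 0.0485), where no library overlapped those of CUP1-PHO92. It did not pass the threshold in L38P (log2 0.39, adjusted p 0.0827) or I39A (log2 0.33, adjusted p 0.434). Against pho92Δ it fell in I39A (log2 -0.77, adjusted p 0.00638), L38P (log2 -0.71, adjusted p 0.0057) and L35A (log2 -0.59, adjusted p 0.0252). In Δ35–42 the value was -0.53 (adjusted p 0.259), although all 3 libraries lay below those of pho92Δ, and in W177A it was -0.02 with a 95% interval of -0.39 to 0.34. The order of means was pho92Δ, W177A, Δ35–42, L35A, L38P, I39A, WT and CUP1-PHO92. Neighbours in it were separated without overlap only between W177A and Δ35–42 and between L35A and L38P.

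The calls of RME1 in pho92Δ against WT, CUP1-PHO92 against pho92Δ, W177A against CUP1-PHO92, and L38P and I39A against pho92Δ held in all 12 alternatives of each. Without replicate 1 of W177A, the batch B library, the log2 difference from CUP1-PHO92 was 0.89. The call in Δ35–42 was lost without CUP1-PHO92 replicate 2 or 3 (adjusted p 0.0822 and 0.164), without Δ35–42 replicate 1 or 2 (0.108 and 0.0625), and in a fit of the 6 libraries alone (0.101). In L35A against CUP1-PHO92 it was lost with RLE scaling (adjusted p 0.0519), in the 6 libraries alone (0.134), and without replicate 2 or 3 of CUP1-PHO92 (0.101 and 0.249) or replicate 1, 2 or 3 of L35A (0.153, 0.0807 and 0.0613). In L35A against pho92Δ it was lost whichever of the 6 libraries was left out (adjusted p 0.0532 to 0.111).

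UME6 was higher in pho92Δ and in 3 of the 5 mutants. Its libraries held 271.14, 346 and 390 CPM in W177A, 286, 250.23 and 367 CPM in Δ35–42, and 287, 243 and 332 CPM in L35A. CUP1-PHO92 had 171, 199 and 191 CPM, below every library of these 3 mutants. The values were 249, 275 and 321 CPM in pho92Δ, against 159.66, 152 and 215 CPM in WT, again without overlap. UME6 rose 1.80-fold in W177A (log2 0.85, SE 0.167, adjusted p 0.0011), 1.61-fold in Δ35–42 (log2 0.69, SE 0.167, adjusted p 0.00662) and 1.54-fold in L35A (log2 0.62, SE 0.167, adjusted p 0.0119), each against CUP1-PHO92. In pho92Δ it was 1.60 times the WT level (log2 0.68, SE 0.167, adjusted p 0.00928), and in CUP1-PHO92 0.663 times the pho92Δ level (log2 -0.59, SE 0.166, adjusted p 0.0106).

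In I39A (268, 237 and 246 CPM) and L38P (275, 221 and 212 CPM) every library lay above those of CUP1-PHO92, but UME6 did not pass the threshold (log2 0.42, adjusted p 0.31, and log2 0.34, adjusted p 0.102). None of the 5 mutants passed it against pho92Δ, with log2 values from -0.25 in L38P to 0.25 in W177A. From the highest mean down the groups were W177A, Δ35–42, L35A, pho92Δ, I39A, L38P, CUP1-PHO92 and WT, and L38P and CUP1-PHO92 were the one pair of neighbours without overlap. The call in pho92Δ against WT was lost without WT replicate 2 (adjusted p 0.0626) or pho92Δ replicate 3 (0.0550), and that in CUP1-PHO92 against pho92Δ without pho92Δ replicate 3 (0.0626). In L35A it was lost without CUP1-PHO92 replicate 1 (adjusted p 0.0532) or L35A replicate 3 (0.0511), while those in W177A and Δ35–42 held in all 12 alternatives.

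IME1, the master activator, differed in L38P and in no other strain at the threshold. Its libraries held 2554, 2279 and 1838 CPM in L38P, against 3990.5, 3724 and 2539 CPM in CUP1-PHO92 and 4099, 4003 and 3972 CPM in pho92Δ. One L38P library was thus just above the lowest CUP1-PHO92 library, and none reached pho92Δ. IME1 fell to 0.651 times the CUP1-PHO92 level (log2 -0.62, SE 0.177, adjusted p 0.0084) and to 0.553 times the pho92Δ level (log2 -0.86, SE 0.178, adjusted p 0.00136). The first call was lost without CUP1-PHO92 replicate 1 (log2 -0.495, adjusted p 0.0509), and the second held in all 12 alternatives.

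Outside L38P the group means of IME1 lay between 3418 CPM in CUP1-PHO92 and 4357 CPM in W177A, and every pair of neighbours in the order overlapped. The order from the top was W177A, pho92Δ, L35A, WT, I39A, Δ35–42, CUP1-PHO92 and L38P. WT had 4392, 3179 and 3809 CPM, and the difference of pho92Δ from it was log2 0.09 with a 95% interval of -0.28 to 0.45. In W177A, where RME1 was 2.11 times the CUP1-PHO92 level, IME1 had 4796, 4039 and 4236 CPM and a log2 fold change of 0.35 against CUP1-PHO92 (95% interval -0.02 to 0.72, adjusted p 0.142). The 3 W177A libraries lay above the 3 of CUP1-PHO92 without passing the threshold. In both pho92Δ and W177A, where RME1 rose, the mean of IME1 was not below that of the strain it was compared with. Both 95% intervals include a small fall, and whether RME1 affected IME1 here was not tested. The ratio of IME1 to RME1 per kilobase of coding length was 133 to 162 in W177A, against 222 to 275 in CUP1-PHO92, and 133 to 139 in pho92Δ, against 179 to 270.23 in WT. In L38P, where IME1 fell, the ratio was 105 to 137.

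IME2, the kinase gene downstream of Ime1, had the widest range of group means among the 7 regulators, 3.16-fold between L35A and L38P. Its libraries held 2134, 1341 and 1618 CPM in L38P, against 4246, 5339 and 3958 CPM in CUP1-PHO92. That is 0.376 times the level of CUP1-PHO92 (log2 -1.41, SE 0.173, adjusted p 1.04e-05) and 0.490 times that of pho92Δ (log2 -1.03, SE 0.172, adjusted p 0.000229), with no overlap in either case. Both calls held in all 12 alternatives. In pho92Δ the gene had 3619, 3499 and 3276 CPM, against 4690, 6149 and 4616 CPM in WT, and fell to 0.673 times (log2 -0.57, SE 0.171, adjusted p 0.0252). This call was lost without WT replicate 2 (log2 -0.397, adjusted p 0.239), without pho92Δ replicate 2 or 3 (adjusted p 0.0819 and 0.0960) and in the 6 libraries alone (0.0571).

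In L35A, IME2 had 5510, 6121 and 4444 CPM and was higher than in pho92Δ (log2 0.63, SE 0.171, adjusted p 0.0148), a call lost without replicate 1 or 2 of L35A (0.0534 and 0.103) or replicate 3 of pho92Δ (0.0602). Of the other mutants, I39A had 4293, 4513 and 4337 CPM, W177A 3255, 4459 and 4443 CPM, and Δ35–42 3588, 3847 and 3224 CPM. The 3 of I39A lay above pho92Δ (log2 0.34, adjusted p 0.158) and the 3 of Δ35–42 below CUP1-PHO92 (log2 -0.35, adjusted p 0.148), without passing the threshold. The 8 means ran in the order L35A, WT, CUP1-PHO92, I39A, W177A, Δ35–42, pho92Δ and L38P, and pho92Δ and L38P were the only neighbours without overlap. The lowest W177A library was replicate 1, of batch B.

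Set against IME1 in the same library and per kilobase of coding length, IME2 was lowest in L38P and pho92Δ. The ratio of IME2 to IME1 was 0.329 to 0.492 in L38P, 0.379 to 0.617 in W177A and 0.448 to 0.635 in Δ35–42, against 0.595 to 0.871 in CUP1-PHO92. It was 0.461 to 0.493 in pho92Δ, below all of WT at 0.597 to 1.08. L35A (0.681 to 0.812) and I39A (0.556 to 0.808) lay within or near the range of CUP1-PHO92. These ratios are descriptions of 3 libraries a group and were not tested.

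**Figure D2:**
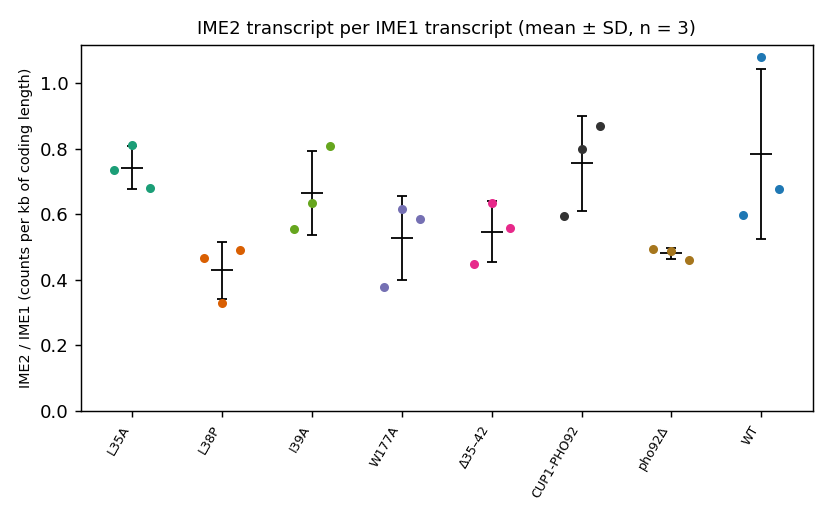
Ratio of IME2 to IME1 counts per kilobase of coding length in each library (y axis, from 0), by strain group, with the mean ± SD (n = 3). The 3 pho92Δ libraries sit between 0.461 and 0.493, below the 3 WT libraries, and those of L38P lie between 0.329 and 0.492.

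RIM11, a kinase of the GSK-3 family that phosphorylates Ime1 and Ume6, varied least, with a 1.39-fold range of group means. It had 174.71 to 206 CPM in L38P, against 245 to 267 CPM in CUP1-PHO92, and fell there to 0.765 times (log2 -0.39, SE 0.120, adjusted p 0.0142). This was its one call in 13 comparisons, and it was lost without L38P replicate 2 (log2 -0.311, adjusted p 0.0818), the batch B library. The means ran from 271.47 CPM in L35A through I39A, WT, CUP1-PHO92, Δ35–42, W177A and pho92Δ to 196 CPM in L38P, and only the last pair did not overlap. All 3 pho92Δ libraries (216 to 235 CPM) were below WT (236 to 304 CPM), with an adjusted p of 0.22.

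RIM15, a nutrient-regulated kinase needed for early gene expression, was highest in L35A. Its libraries there lay between 274 and 276 CPM, against 169 to 215 CPM in CUP1-PHO92, a 1.49-fold rise (log2 0.57, SE 0.155, adjusted p 0.0125). In L38P it had 132 to 202 CPM, against 221 to 233 CPM in pho92Δ, and fell to 0.693 times (log2 -0.53, SE 0.155, adjusted p 0.015). The first call was lost without CUP1-PHO92 replicate 1 or 3 (adjusted p 0.0573 and 0.0636), the second without L38P replicate 2 or 3 (0.0793 and 0.0874). L35A and WT were the only neighbours without overlap in the order L35A, WT, W177A, I39A, pho92Δ, Δ35–42, CUP1-PHO92 and L38P. CUP1-PHO92 was below WT in all 3 libraries without passing the threshold (log2 -0.41, adjusted p 0.119).

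RIM4 followed a like order, with L35A (7522 to 8729 CPM) and WT (7308 to 8911 CPM) at the top and L38P (3595 to 5884 CPM) at the bottom. Between them stood W177A, pho92Δ, I39A, Δ35–42 and CUP1-PHO92, and every pair of neighbours overlapped. It rose 1.40-fold in L35A against CUP1-PHO92, which had 5186 to 6830 CPM (log2 0.48, SE 0.163, adjusted p 0.0379), and fell to 0.721 times the pho92Δ level in L38P (log2 -0.47, SE 0.163, adjusted p 0.0345). The rise held without CUP1-PHO92 replicate 2. It was lost without replicate 1 or 3 of CUP1-PHO92 (0.137 each), without replicate 1, 2 or 3 of L35A (0.0526, 0.0705 and 0.0937) and in the 6 libraries alone (0.0600). The fall was lost without L38P replicate 2 or 3 (adjusted p 0.102 and 0.183), without pho92Δ replicate 2 or 3 (0.0765 and 0.0989) and in the 6 libraries alone (0.0954). CUP1-PHO92 lay below WT in all 3 libraries (log2 -0.45, adjusted p 0.0972).

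**Figure D3:**
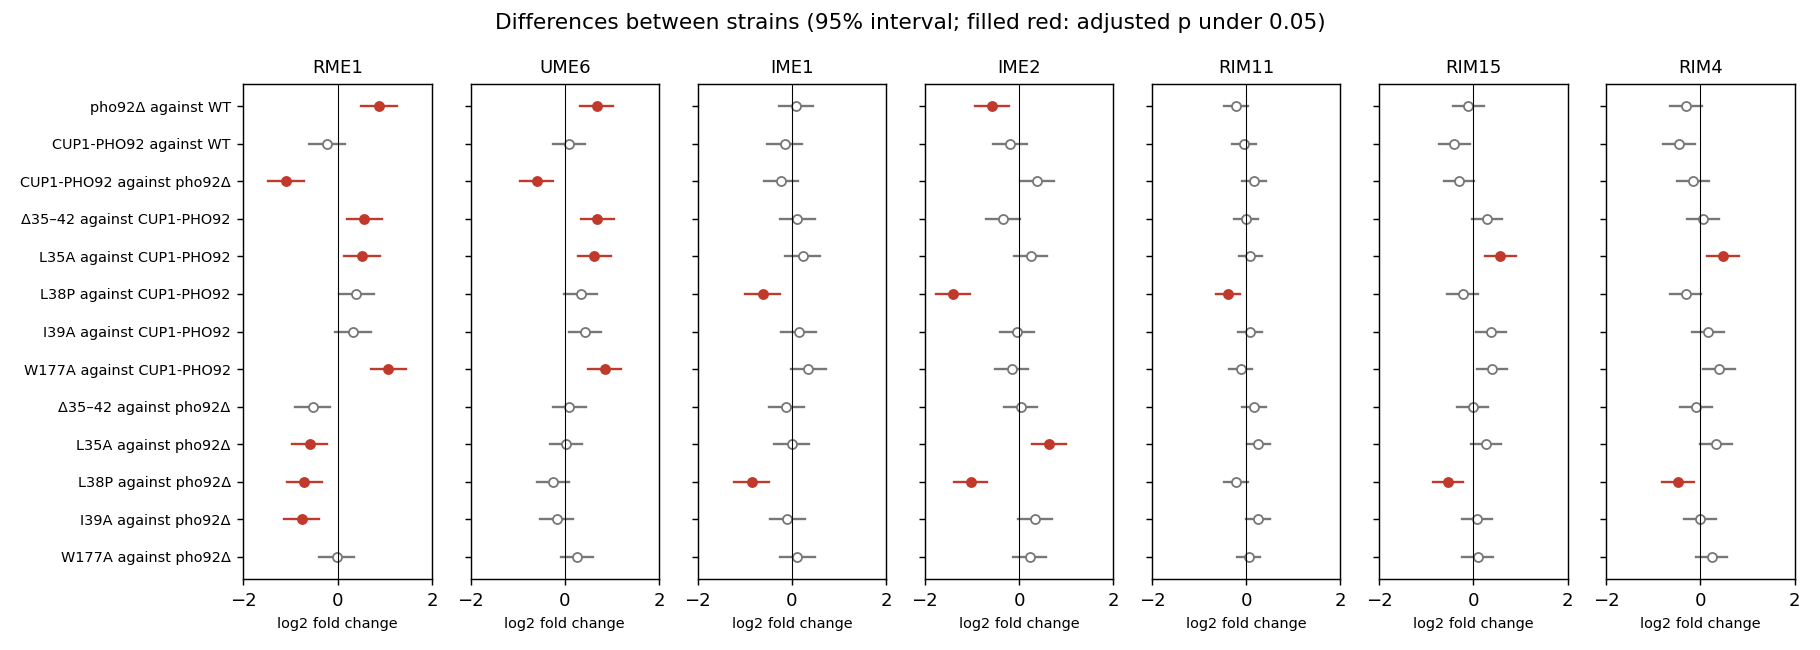
Log2 fold change of each regulator (x axis) in the 13 comparisons (rows), the first-named strain over the second; bars are 95% intervals, and filled red points have an adjusted p under 0.05 (edgeR). RME1 and UME6 lie to the right in pho92Δ against WT and in W177A against CUP1-PHO92, while IME1 and IME2 lie to the left in both L38P rows.

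Counted by comparison, the calls fell as follows, each beside the share of all 5698 features called. In pho92Δ against WT, 3 of the 7 regulators were called (17.7% of features, 8.18% higher): RME1 and UME6 higher and IME2 lower. CUP1-PHO92 against WT gave none with edgeR (6.93%, 3.93% higher). There RIM15 and RIM4 had an unadjusted p under the threshold (0.0161 and 0.0115), and DESeq2 called 1, RIM4. CUP1-PHO92 against pho92Δ gave 2, RME1 and UME6, both lower (34.6%, 17.8% lower). Against CUP1-PHO92 there were 2 in W177A (27.9%, 14.9% higher) and 2 in Δ35–42 (21.8%, 11.9% higher), RME1 and UME6 higher in both. RIM15 and RIM4 were also higher in W177A (log2 0.40 and 0.39), with unadjusted p of 0.0188 and 0.0257 and adjusted p of 0.0618 and 0.0776. Both were called without W177A replicate 1, the batch B library (0.0130 and 0.0270), or without CUP1-PHO92 replicate 2 (0.0373 and 0.0433). DESeq2 called RIM4 there (0.0452). The next 3 strains are set against CUP1-PHO92 too. L35A had 4, all higher (22.6%, 11.3% higher), namely RME1, UME6, RIM15 and RIM4, and L38P had 3, all lower (44.0%, 20.9% lower), namely IME1, IME2 and RIM11. I39A had none (0.0527%) with edgeR or DESeq2, and 2 regulators, RIM15 and UME6, had an unadjusted p under 0.05 (0.0261 and 0.0192).

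Against pho92Δ, 5 regulators were called in L38P, all lower (29.4%, 14.1% lower): IME1, IME2, RIM15, RIM4 and RME1. L35A had 2 (21.0%), IME2 higher (9.86%) and RME1 lower (11.2%), and I39A had 1 (20.8%), RME1 lower (10.5%). Neither Δ35–42 (0.105%) nor W177A (1.35%) had any with edgeR or DESeq2. At an unadjusted p under 0.05 there was 1 in Δ35–42, RME1 (0.00725), and 0 in W177A. The median log2 fold change of the 7 was -0.53 in L38P against pho92Δ, where that of all features was 0.02, and 0.48 in L35A against CUP1-PHO92, where it was -0.01. In pho92Δ against WT the 2 medians were -0.10 and 0.00. No group of calls held activators and repressors moving in opposite directions except pho92Δ against WT and L35A against pho92Δ.

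The genes upstream of IME1 moved in both directions. Of 16 upstream activators, 2 fell in pho92Δ against WT (9.48% of features lower). Against CUP1-PHO92, 6 rose and 1 fell in W177A (14.9% higher, 13.0% lower), and 4 rose and 3 fell in L38P (23.1% higher, 20.9% lower). Against pho92Δ, 1 rose and 8 fell in L38P (15.3% higher, 14.1% lower), among them SLZ1, MSN4 and MDS3 by 0.78, 0.70 and 0.64 on the log2 scale (adjusted p 0.00448, 0.0268 and 0.0140). The 3 that fell in L38P against CUP1-PHO92 were genes of the m6A writer. SLZ1 averaged 711 ± 181 CPM in L38P and 1863.5 ± 53.2 CPM in CUP1-PHO92 (SD, n = 3 each; log2 -1.39, SE 0.192, adjusted p 2.38e-05), MUM2 fell by 0.74 (adjusted p 2.44e-05) and IME4 by 0.67 on the log2 scale (adjusted p 1.04e-05). SLZ1 also fell in pho92Δ against WT, by 0.60 (SE 0.189, adjusted p 0.0328), and in W177A against CUP1-PHO92, by 0.52 (SE 0.188, adjusted p 0.0441). MDS3, a regulator of early gene expression under starvation, rose against CUP1-PHO92 by 0.78 in W177A, 0.71 in Δ35–42 and 0.61 in L35A (adjusted p 0.00423, 0.0104 and 0.0224), and RIM101, the transcription factor of the Rim101 pathway, by 0.50 in L35A and 0.48 in Δ35–42 (adjusted p 0.00155 and 0.00177). RIM101 was low in CUP1-PHO92 itself, with 288 CPM, against 372 CPM in WT (log2 -0.37, adjusted p 0.0232) and 418 CPM in pho92Δ (log2 -0.54, adjusted p 0.000323), and L35A and Δ35–42 had 406 and 400.31 CPM. MDS3 had 219 CPM in CUP1-PHO92, against 390.25 CPM in pho92Δ (log2 -0.83, adjusted p 0.00203).

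Of 13 upstream repressors, 2 rose and 1 fell in pho92Δ against WT (8.18% of features higher, 9.48% lower). CLN3, a G1 cyclin, averaged 34.9 ± 3.69 CPM in pho92Δ and 20.2 ± 2.55 CPM in WT (log2 0.79, SE 0.207, adjusted p 0.0131), and RAS2, which activates adenylate cyclase, rose by 0.53 (adjusted p 0.0273), while CYC8, a corepressor, fell by 0.52 (adjusted p 0.0241). Against CUP1-PHO92, 5 of the 13 rose in Δ35–42 (11.9% of features higher), 4 in L35A (11.3%), 4 in L38P (23.1%) and 2 in W177A (14.9%). RAS2 rose most in L38P, with 78.8 ± 7.71 CPM against 42.5 ± 7.46 CPM in CUP1-PHO92 (log2 0.89, adjusted p 0.000218). CYR1, adenylate cyclase itself, rose in L35A, Δ35–42 and W177A by 0.68, 0.54 and 0.52 (adjusted p 0.00153, 0.00700 and 0.00660). Here too CUP1-PHO92 was low, with 194 CPM, against 269 CPM in WT (log2 -0.47, adjusted p 0.0338) and 272 CPM in pho92Δ (log2 -0.49, adjusted p 0.00824), while the 3 mutants had 278 to 311 CPM. Of 7 corepressors of Ume6, 2 rose in Δ35–42 (11.9% of features higher), 2 in L35A (11.3%), among them SIN3 (log2 0.40, adjusted p 0.0289), and 1 in L38P (23.1%), SDS3 (log2 0.53, adjusted p 0.0328), each against CUP1-PHO92. In W177A 1 fell (13.0% lower), UME1 (log2 -0.28, adjusted p 0.0314).

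Downstream of Ime1 and Ume6, the 20 early meiotic genes fell in L38P. All 20 were called lower there against CUP1-PHO92 (20.9% of features lower) and all 20 against pho92Δ (14.1%), with medians of -0.93 and -0.85 on the log2 scale. Their summed level was 7164 to 11748 CPM in L38P, against 16497 to 18879 CPM in CUP1-PHO92 and 16771 to 18324 CPM in pho92Δ. HOP1, with a URS1 core match printed above, encodes an axis protein of meiotic chromosomes. It averaged 1229 ± 303 CPM in L38P and 2614 ± 96.2 CPM in pho92Δ (log2 -1.09, SE 0.130, adjusted p 1.49e-05). Fewer of the list were called in the comparisons without L38P. Of the 20, 2 fell in pho92Δ against WT (9.48% of features lower), and 2 fell in Δ35–42 (9.97%) and 2 rose in W177A against CUP1-PHO92 (14.9% higher). Against pho92Δ, 4 rose and 2 fell in CUP1-PHO92 (16.8% higher, 17.8% lower), and 3 rose in L35A (9.86% higher). Markers of mitotic cells moved in L38P as well. Of 8 such genes 6 rose against CUP1-PHO92 (23.1% of features higher), and 3 rose and 1 fell against pho92Δ (15.3% higher, 14.1% lower). Their sum was 264 to 397 CPM in L38P, against 197 to 215 CPM in CUP1-PHO92 and 241 to 257 CPM in pho92Δ. In Δ35–42 it was 219 to 300 CPM, which overlaps L38P. The part of these markers in the lower regulators was not tested.

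Of the same 8 mitotic markers, 3 rose in pho92Δ against WT (8.18% of features higher), with a list median of 0.08. Against CUP1-PHO92, 3 rose in Δ35–42 (11.9%), 2 in L35A (11.3%) and 2 in W177A (14.9%), with medians of 0.31, 0.04 and 0.10. The G1 cyclin CLN1, of this list, rose against CUP1-PHO92 by 1.44 in Δ35–42, 1.14 in W177A and 1.54 in L38P on the log2 scale (adjusted p 1.28e-05, 6.25e-05 and 8.93e-06). In pho92Δ against WT it rose by 1.20 (adjusted p 9.09e-05). RME1 was called higher in 3 of these 4 comparisons, L38P being the exception. CLN1 also rose in L35A against CUP1-PHO92, by 0.64 (adjusted p 0.00978, edgeR), where RME1 was called higher too. In earlier work on yeast, Rme1 has been described as an activator of CLN2. Whether RME1 had a part in the levels of CLN1 or CLN2 here was not tested. CLN2 averaged 27.8 ± 6.78 CPM in W177A and 16.8 ± 2.21 CPM in CUP1-PHO92 (log2 0.72, SE 0.161, adjusted p 0.00294), and 28.0 ± 3.25 CPM in pho92Δ and 19.6 ± 1.89 CPM in WT (log2 0.52, SE 0.160, adjusted p 0.0303). It rose by 0.78 in both Δ35–42 and L35A against CUP1-PHO92 (adjusted p 0.00217 and 0.00252), where the log2 differences of RME1 were 0.57 and 0.51, and 1.08 in W177A. Against pho92Δ, RME1 was called lower in L35A, L38P, I39A and CUP1-PHO92. There CLN2 fell by 0.48 in L38P and by 0.74 in CUP1-PHO92 (adjusted p 0.0298 and 0.00180, edgeR). CLN2 was not called in I39A or L35A against pho92Δ, and it averaged 28.7 CPM in L35A, beside 28.0 CPM in pho92Δ. The 17 middle meiotic genes, NDT80 and its targets, had 15 lower in pho92Δ than in WT (9.48% of features lower). That count was 0 without WT replicate 2 and 9 in the 6 libraries alone. They had 16 lower in L38P against CUP1-PHO92 (20.9% lower). Against pho92Δ they had 16 higher in L35A (9.86% of features higher) and 10 higher in I39A (10.4%). Their sums in L35A were uneven, at 8255, 14362 and 4256 CPM in replicates 1, 2 and 3. Leaving out libraries was done for this list only in pho92Δ against WT.

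**Figure D4:**
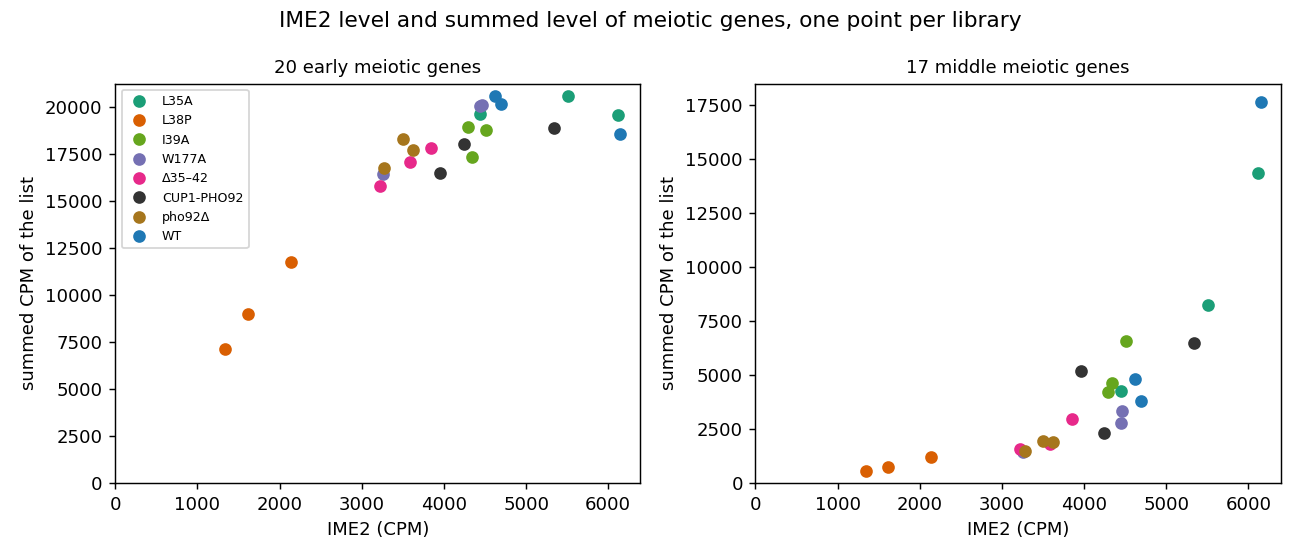
Level of IME2 in CPM (x axis) and summed CPM of the 20 early or the 17 middle meiotic genes (y axis of each panel), one point per library, coloured by strain. The 3 L38P libraries lie lowest on both axes in the early panel, at 7164 to 11748 CPM, and WT replicate 2 is highest in the middle panel, at 17654 CPM.

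Across the 24 libraries, which share groups, the patterns of the regulators resembled each other unequally. Pearson's r of log2 CPM was 0.897 for RIM15 and RIM4, 0.816 for IME2 and RIM11 and 0.671 for IME1 and IME2, and 0.525 for RME1 and UME6, whose 8 group means had an r of 0.804. IME2 had an r of -0.111 with RME1 and -0.098 with UME6. Among 5213 features with a mean of at least 10 CPM, the 3 most like each member were ULP2, DBP1 and GAC1 for IME1 (r 0.923 to 0.931), HUL4, YKR005C and RPN5 for IME2 (0.977 to 0.980), and APC9, VPR1 and NPC2 for RIM11 (0.928 to 0.948). They were EAF1, CFT1 and YTA7 for RIM15 (0.965 to 0.980), SPC105, UFD2 and GMC1 for RIM4 (0.898 to 0.930), CYB2, GGA2 and ETR1 for RME1 (0.892 to 0.910), and FIR1, SUM1 and REV1 for UME6 (0.917 to 0.937). The share of the variance of log2 CPM that lay between groups was 89.0% for IME2, 80.0% for RME1 and 59.6% for RIM11, beside a median of 63.1% over all features.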

How the data were processed

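Strand-specific libraries of polyadenylated RNA were sequenced from 24 samples in 8 groups, assigned from the sample titles. The authors deposited raw counts per feature, whole numbers without normalization. The submitters' processing notes name STAR 2.7.10a, RSEM 1.3.1 and DESeq2 1.48.1 without their roles, so the counts may be rounded estimates. The genome build, annotation and strand setting are not given in the sources used here. Of 6157 features, 5620 matched locus tags of R64, used for names, coding lengths and reference sequence.

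Counts were analysed in R 4.3.3 with edgeR 4.0.16. After filterByExpr, which removed 459 features, TMM scaling and a quasi-likelihood model with 1 mean per group were fitted to all 24 libraries (16 residual degrees of freedom). The 13 comparisons were tested with glmQLFTest, with Benjamini-Hochberg adjustment over 5698 features and a threshold of 0.05. CPM uses TMM-scaled library sizes, and errors are SDs, SEs or 95% intervals. Floors of 3 counts cover counting error only. The 7 genes, the lists and the tests were chosen with earlier results of these data known. The members are always named, together with the 3 features most correlated with each and up to 3 called genes of largest change per list. The model was tested on simulated data. No member's coding sequence overlaps another gene's in R64.

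Alternatives were RLE scaling, no filter, a replicate block, the first principal component of the within-group residuals as a covariate (35.7% of their variance, estimated from the same libraries), the 6 libraries of a comparison alone, DESeq2 1.42.0, and leaving out each library. Same-numbered libraries deviated together, with all 3 correlations over 0.1, in Δ35–42, L35A and I39A against CUP1-PHO92 and in L35A and W177A against pho92Δ. The replicate numbers were taken as pairs there when the replicate block was read. The main model, which gave the calls, held no block.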

Additional observations from a re-analysis of the deposited data

How the results depend on the processing

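The alternatives for the counts of early and middle meiotic genes were chosen after seeing the data. Of 91 tests of the 7 regulators 24 were called; 10 held in each of their 12 alternatives, 14 were lost in at least 1, and none of the 24 changed sign. Of the other 67, 14 were called somewhere. The replicate block kept all 24 calls and gave 26, adding RME1 in L38P (0.418, adjusted p 0.0176) and IME1 in W177A (0.367, adjusted p 0.0365), both against CUP1-PHO92. In both of these the numbers are not shown to pair the libraries, and where they were taken as pairs the block changed no call. Called regulators numbered 1 with DESeq2 in CUP1-PHO92 against WT. In the 6 libraries alone they numbered 1 in Δ35–42 and 2 in L35A against CUP1-PHO92, and 2 in I39A against pho92Δ, where the covariate gave 3; middle meiotic genes lower in pho92Δ than WT numbered 9. Leaving out a library gave 1 to 3 regulators in pho92Δ against WT, 1 to 2 in CUP1-PHO92 against pho92Δ, and, against CUP1-PHO92, 1 to 2 in Δ35–42, 1 to 3 in L35A, 2 to 5 in L38P and 2 to 4 in W177A. Against pho92Δ it gave 0 to 2 in L35A and 3 to 5 in L38P, 19 to 20 early genes lower in L38P, and 0 to 15 middle genes lower in pho92Δ than WT. The cause of these changes was not tested. Uncalled log2 values whose sign changed on leaving out a library were, for IME1, -0.277 to 0.024 (CUP1-PHO92 against WT), -0.061 to 0.240 and -0.034 to 0.277 (Δ35–42 and I39A against CUP1-PHO92), -0.205 to 0.045 and -0.040 to 0.060 (I39A and L35A against pho92Δ). For L35A, RLE and DESeq2 gave 0.012 and the 6 libraries 0.000. For IME2 they were -0.025 to 0.102 (Δ35–42 against pho92Δ) and -0.129 to 0.095 (I39A against CUP1-PHO92). For RIM11 they were -0.140 to 0.070 (CUP1-PHO92 against WT) and -0.063 to 0.090 (Δ35–42 against CUP1-PHO92), and that comparison also gave 0.009 with RLE, 0.033 without the filter, 0.002 in the 6 libraries and 0.010 with DESeq2. RIM15 had -0.081 to 0.034 (Δ35–42, with 0.005 under RLE and DESeq2) and -0.039 to 0.239 (W177A), both against pho92Δ. RIM4 had -0.022 to 0.192 (Δ35–42 against CUP1-PHO92) and -0.055 to 0.039 (I39A against pho92Δ). RME1 had -0.228 to 0.076 (W177A), and UME6 -0.072 to 0.212 (Δ35–42) and -0.090 to 0.132 (L35A), all against pho92Δ. Depth limits RME1 most, with 165 to 1090 counts a library.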

Other observations

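MPC54, which encodes a protein of the meiotic spindle pole body, stands in the middle meiotic list. In W177A and Δ35–42 against CUP1-PHO92 it rose while the list medians were -1.21 and -1.31. It averaged 637 ± 69.0 CPM in W177A and 338 ± 39.1 CPM in CUP1-PHO92 (SD, n = 3 each; log2 0.91, SE 0.155, adjusted p 0.000282), and it rose in Δ35–42 by 0.49 (adjusted p 0.0286, edgeR). The cyclin gene CLB4, of the same list, fell by 0.99 in W177A and by 1.11 in Δ35–42 (adjusted p 0.0440 and 0.0327). MPC54 also went against the list in CUP1-PHO92 against pho92Δ, with means of 338 and 544 CPM beside a list median of 1.75. It moved with the list in L35A against CUP1-PHO92 and in L38P against pho92Δ. It rose by 0.90 in L35A against CUP1-PHO92 (adjusted p 0.000668), beside a list median of 0.90. In L38P against pho92Δ it fell by 1.31 (adjusted p 1.49e-05), beside a list median of -1.30. FUS3, a kinase of the mating pathway in the haploid list, averaged 21.9 ± 2.45 CPM in pho92Δ and 9.25 ± 0.445 CPM in WT (log2 1.25, SE 0.157, adjusted p 5.69e-05). It was the 1 gene of that list called higher there (8.18% of features higher), while 3 of the 14 tested were called lower (9.48% lower). Among these were STE4 (log2 -1.27, adjusted p 0.0176) and FAR1 (log2 -0.73, adjusted p 0.0131), and the median of the list was -0.40. WT was uneven here, with 48.1 ± 35.1 CPM for STE4 and 14.5 ± 4.03 CPM for FAR1. The 16 haploid markers summed to 347 CPM in WT replicate 2, against 230 and 228 CPM in replicates 1 and 3. FUS3 also rose in W177A against CUP1-PHO92 (log2 1.14, SE 0.156, adjusted p 3.07e-05).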
